A study of Mus musculus with 3 samples.

Results

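Complement is a cascade of blood and tissue proteins, and 9 of its genes were followed through cardiac reprogramming: C1qa, C1qb, C1qc, C1ra, C1s1, C4b, C2, C3 and Cfb. They were found by gene name among the 54532 genes of the deposited tables, and each name gave 1 row. RNA was sequenced from 3 mouse libraries, and with a single library for a condition there is no replicate to check a difference and no p-value is given. MICFs are cardiac fibroblasts from the infarcted hearts of Myh6-mCherry mice (8 weeks old at surgery), isolated 5 days after myocardial infarction and kept in culture for 4 weeks without virus or sorting. GMTMS-iCMs came from such cells after lentiviral delivery of Gata4, Mef2c, Tbx5, Myocd and Sall4 under a doxycycline-inducible promoter, and GMTMM has Mesp1 in place of Sall4. All groups carry the mCherry transgene, which the Myh6 promoter switches on in cardiomyocyte-like cells. The transduced cells were sorted for mCherry after 4 weeks and 5 sorted samples were mixed per library, so an animal or a dish cannot be told from another. The MICF library was neither transduced nor sorted, so the factors, the sort and the mixing cannot be told apart in any comparison with it.

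The classical pathway of complement starts with C1, in which C1q, built from the A, B and C chains, binds antibody complexes or dying cells and switches on the proteases C1r and C1s. C1s cuts C4 and C2 into the convertase that cleaves C3, the protein on which all complement pathways meet, and factor B (Cfb) serves the alternative pathway that amplifies C3 cleavage. Most complement in blood is made by the liver, but C1q is made mainly by macrophages and dendritic cells, and C1r and C1s by fibroblasts and other stromal cells. Tissue C3 and C4 come from several cell types, macrophages and fibroblasts among them, and interferons are known inducers of C2 and Cfb.

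Library totals came to 11861773 counts (MICFs), 10624118 (GMTMS-iCMs) and 11904484 (library labelled GMTMM), and values for all 3 libraries stand in this order below. A total of 3 counts, which a count of 0 allows, equalled 0.252 to 0.282 CPM. Sall4, which only GMTMS should deliver, had 0, 1190 and 1060 counts, and Mesp1 had 0 in all 3, so the last library goes against its label and is called the library labelled GMTMM throughout. Markers of other cells were present in every library. The 18 macrophage markers took 1.95%, 3.01% and 1.45% of the counts, and the 12 fibroblast markers took 1.55%, 0.165% and 2.34%. The 8 cardiomyocyte markers took 0.000337%, 0.292% and 0.116%, less than the macrophage markers in every library. Of these 8, 7 were higher by over 1 in both transduced libraries than in MICFs, and 7 of 7 endothelial markers were lower by over 1 in GMTMS-iCMs. Lymphocyte genes were near 0 in MICFs and GMTMS-iCMs and higher in the library labelled GMTMM. There Cd3e, Cd8a and Nkg7 had 57, 63 and 62 counts. The neutrophil genes S100a9 and Ly6g had 0 counts everywhere, but S100a8, another neutrophil gene, did not. The 10 markers of other leukocytes, these genes among them, had 37, 10 and 228 counts together. Of 5 hepatocyte markers, Alb, Ttr, Serpina1a and Apob had 0 counts in all 3 libraries and Apoa2 had 5 to 21. In bulk samples such as these, fewer cells of a type and less RNA per cell cannot be told apart.

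The genes lie in 4 stretches of the genome, and upstream DNA is shown for some of those with a RefSeq start site. On GRCm38, the assembly of the deposited coordinates, the C1q genes follow each other on chromosome 4, with C1qb from 136880129 to 136886187, C1qc from 136889804 to 136893065 and C1qa from 136895917 to 136898803, all on the minus strand. C1ra (chromosome 6, 124512405 to 124523443, plus strand) and C1s1 (124530345 to 124542359, minus strand) are 6901 bases apart. C4b (chromosome 17, 34728380 to 34743882), Cfb (34856374 to 34862518) and C2 (34862604 to 34898265) lie together in the major histocompatibility region, with 85 bases between Cfb and C2, and C3 is farther along the same chromosome (57203970 to 57228136). RefSeq gave windows of 250 bases upstream of a start site for 5 of the 9 genes, C1qb, C1qc, C1ra, C1s1 and C3. They are given for 1 C1q chain, for 1 protease of C1 and for C3, which stand for the 3 patterns of levels described after them. Each is on the minus strand and reads 5′ to 3′ towards the start site, with C/EBP letters (TTGCNNAA on either strand) in capitals.
C1qb, chr4:136886201-136886450: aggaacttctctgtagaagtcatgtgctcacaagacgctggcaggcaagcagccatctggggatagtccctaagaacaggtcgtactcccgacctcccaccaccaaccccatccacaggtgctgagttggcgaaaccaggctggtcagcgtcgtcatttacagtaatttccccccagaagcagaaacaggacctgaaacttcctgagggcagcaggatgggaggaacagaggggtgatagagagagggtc
C1s1, chr6:124542360-124542609: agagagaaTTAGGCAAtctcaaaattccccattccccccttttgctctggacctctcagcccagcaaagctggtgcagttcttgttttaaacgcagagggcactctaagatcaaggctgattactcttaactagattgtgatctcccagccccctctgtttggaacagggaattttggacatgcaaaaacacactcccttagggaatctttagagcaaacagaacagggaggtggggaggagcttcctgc
C3, chr17:57228137-57228386: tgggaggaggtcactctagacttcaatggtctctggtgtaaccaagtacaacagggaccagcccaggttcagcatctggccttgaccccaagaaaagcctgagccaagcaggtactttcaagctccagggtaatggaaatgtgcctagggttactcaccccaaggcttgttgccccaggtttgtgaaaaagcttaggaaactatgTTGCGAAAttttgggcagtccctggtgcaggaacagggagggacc
The C/EBP letters, bound by a family of factors active in macrophages, fibroblasts and liver, began 45 bases before the C3 start site and 242 bases before the C1s1 start site that equals the deposited gene edge. RefSeq has a further C1s1 start site 38 bases inside that edge, and its window holds no such letters. They occurred in 9.56% of 32851 such windows of all genes. The PU.1 letters GAGGAAG, named for a macrophage factor, occurred in 10.61% of all windows and, among the genes described here, in that of C1qc. The interferon response letters GAAANNGAA (7.13% of windows) and TTCNNNGAA (7.02%), the NF-kB letters GGGNNTTCC (4.98%), TATAAA (12.4%) and CCAAT (33.8%) were in none of the 6 windows of these 5 genes, which says only that those letters are not in these stretches. Both strands were searched, and a match is a description and not a shown binding site. The RefSeq start sites of C1qc and C1ra lay 151 and 216 bases inside the deposited gene, so most of each window lay within that gene. The C1qb start site lay 13 bases outside the deposited gene.

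Levels are given as deposited FPKM, which are counts per gene length and library size, and compared between genes only on that scale. Differences are between values of log2(FPKM + 1) after quantile normalization over the 3 libraries, and a gene is called higher or lower when the difference is over 1. A fold is the ratio of a gene's deposited FPKM in a pair of libraries, and its 95% interval (Clopper-Pearson, from the counts) covers counting error only. Between GMTMS-iCMs and MICFs, 0 of the 9 genes were higher and 2 were lower, against 12.1% higher and 10.7% lower among the 13919 genes with an FPKM of at least 1 in a library, and 3.13% and 2.72% of all genes. Between the library labelled GMTMM and MICFs, 1 was higher and 0 were lower, against 8.31% and 5.09% of those 13919 genes and 2.12% and 1.30% of all genes. GMTMS-iCMs set against the library labelled GMTMM had 0 higher and 3 lower, against 9.01% and 11.1%, or 2.33% and 2.84% of all genes. The comparisons share libraries and are not independent. The median difference of the 9 genes was 0.00012, 0.25 and -0.25 in these comparisons, and that of the 13919 genes was -0.04, -0.08 and 0.10. A single value does not describe the 9 genes, because the C1q chains, the C1 proteases and C3 each had their own pattern. Only Cfb stayed under an FPKM of 1 in all 3 libraries.

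**Figure D1:**
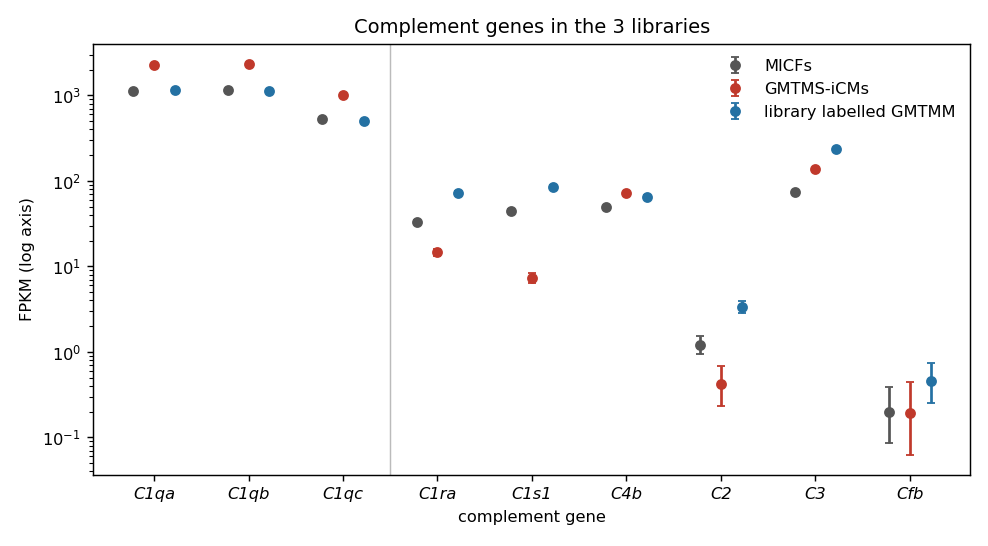
FPKM (log axis) of the 9 complement genes in the 3 libraries, 1 point per library, with bars for the 95% counting interval, which are often smaller than the point. The 3 C1q chains lie between 505 and 2321 FPKM, above every other gene, and C1ra, C1s1 and C2 are lowest in GMTMS-iCMs.

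C1q was among the most abundant transcripts of every library. C1qa (ENSMUSG00000036887), the A chain, had 1123 FPKM in MICFs against 2279 in GMTMS-iCMs, with 1161 in the library labelled GMTMM, from 16812, 22012 and 14104 counts. C1qb (ENSMUSG00000036905), the B chain, had 1149, 2321 and 1130 FPKM, from 17984, 23458 and 14367 counts. The C chain gene C1qc (ENSMUSG00000036896) had 530, 996 and 505 FPKM, from 14715, 17864 and 11382 counts. All 3 chains were highest in GMTMS-iCMs, and on the FPKM scale MICFs and the library labelled GMTMM lay close together. By FPKM, C1qb ranked 14th, 11th and 23rd of all genes, C1qa 15th, 12th and 21st, and C1qc 37th, 35th and 67th. Together the chains took 0.417% of the MICF counts (95% Clopper-Pearson interval 0.414% to 0.421%), 0.596% of those of GMTMS-iCMs (0.592% to 0.601%) and 0.335% in the library labelled GMTMM (0.332% to 0.338%).

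How far C1q was raised in GMTMS-iCMs depended on the scale. C1qa was 2.03-fold higher there than in MICFs (1.99 to 2.07) in deposited FPKM, C1qb 2.02-fold (1.98 to 2.06) and C1qc 1.88-fold (1.84 to 1.92). After quantile normalization the differences were 0.27, 0.26 and 0.09, and no chain passed 1. Quantile normalization gives the top-ranked genes of each library equal values, and C1q lies among these. The 100 genes with the highest mean FPKM, which include the 3 chains, had a median difference of 0.80 without quantile normalization and of 0 with it, while the chains had a mean of 0.98 and 0.21. C1q was therefore 0.18 to 0.21 above its abundant neighbours on either scale. Between the library labelled GMTMM and MICFs the differences were -0.23, -0.37 and -0.68, and in deposited FPKM the folds were 1.03 (1.01 to 1.06), 0.984 (0.963 to 1.01) and 0.953 (0.930 to 0.977). The sign for C1qa thus turned with the scale, and it was above 0 in 3 of 8 scalings. Set against the median of the same 100 abundant genes, the mean of the chains in that library was -0.39 with quantile normalization and -0.45 without it. GMTMS-iCMs exceeded the library labelled GMTMM in all 3 chains and all 8 scalings, by 0.50, 0.64 and 0.77 on the main scale and 1.96 to 2.05-fold in FPKM.

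The 3 chains kept nearly constant proportions. For each C1qa count there were 1.07, 1.07 and 1.02 C1qb counts in the 3 libraries, and 0.875, 0.812 and 0.807 C1qc counts. These ratios need no scaling between libraries. C1qb relative to C1qa did not differ between GMTMS-iCMs and MICFs beyond counting error (ratio of ratios 0.996, 0.969 to 1.02). In the library labelled GMTMM it was 0.952 times that of MICFs (0.923 to 0.983). C1qc relative to C1qa was lower than in MICFs in both transduced libraries, 0.927 times (0.900 to 0.955) in GMTMS-iCMs and 0.922 times (0.892 to 0.953) in the library labelled GMTMM. Whether such small gaps exceed the spread between libraries cannot be told from 1 library each.

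C1q lay within the range of the macrophage markers in each comparison with MICFs, and at or below the lower end of that range between the transduced libraries. Against MICFs the range was wide, -0.46 to 3.07 in GMTMS-iCMs and -2.11 to 2.15 in the library labelled GMTMM, with Cd14 at the top. C3, C4b and Cfb also lay within it in both comparisons, and C1ra, C1s1 and C2 in the library labelled GMTMM, so this place is not particular to C1q. The 18 markers, such as Adgre1, Csf1r, Cd68 and the most abundant, Lyz2, had a median difference of 0.30 from MICFs in GMTMS-iCMs, where 3 were higher by over 1 (Ptprc, Spi1 and Cd14) and 0 lower. Their median was -0.74 in the library labelled GMTMM, with 1 higher (Cd14) and 6 lower. Of the 18, 9 lay below and 9 above C1qa and C1qb in GMTMS-iCMs, and 15 and 14 lay below them in the library labelled GMTMM. From that library to GMTMS-iCMs the markers differed by 0.68 to 1.65, and C1qa (0.50) and C1qb (0.64) lay below all 18, while C1qc (0.77) lay above 1 of them. C1q gave 215 counts per 1000 macrophage marker counts in MICFs (212 to 217), 198 in GMTMS-iCMs (196 to 199.8) and 231 in the library labelled GMTMM (228 to 233). This share was 0.924 times that of MICFs in GMTMS-iCMs (0.912 to 0.936) and 1.08 times in the library labelled GMTMM (1.06 to 1.09). Lyz2 supplied 116179 of the 230809 marker counts in MICFs, so single markers were also used. Set against Csf1r, the receptor that macrophages need to survive, C1q gave 2.30, 2.36 and 3.10 counts per count, and against the lysosomal marker Cd68 it gave 5.85, 5.38 and 6.28. The ratio to Csf1r was 1.35 times that of MICFs in the library labelled GMTMM (1.32 to 1.39) and 1.03 times in GMTMS-iCMs (1.00 to 1.05). The part of macrophages in the C1q counts was not tested.

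**Figure D2:**
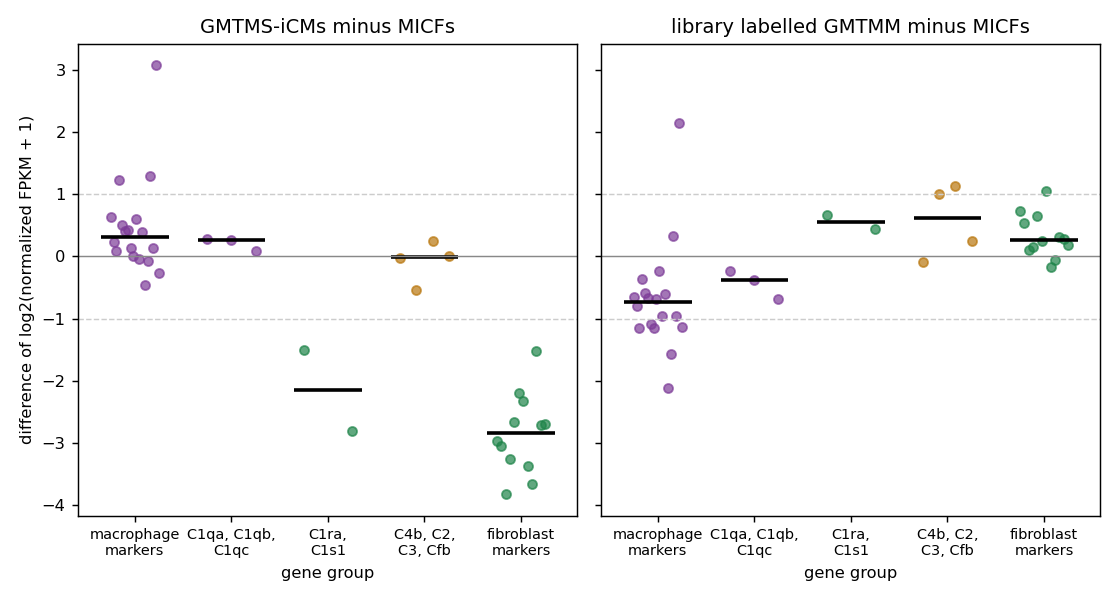
Difference from MICFs of log2(normalized FPKM + 1), for GMTMS-iCMs at left and the library labelled GMTMM at right; each point is a gene, black lines are group medians, and dashed lines mark a difference of 1. At left C1q lies among the macrophage markers (median 0.30), C1ra lies at the upper edge of the fibroblast markers and C1s1 at their median (-2.84), while at right C1q lies above the macrophage median (-0.74) and both proteases lie above the fibroblast median (0.26).

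The proteases of C1 followed another course. C1ra (ENSMUSG00000055172), whose protein activates C1s, had 33.3, 14.6 and 72.7 FPKM, from 1430, 405 and 2530 counts. C1s1 (ENSMUSG00000038521), which encodes the protease that cuts C4 and C2, had 45.0, 7.33 and 85.7 FPKM, from 2024, 213 and 3131 counts. Both were lowest in GMTMS-iCMs and highest in the library labelled GMTMM. C1ra was 2.28-fold lower in GMTMS-iCMs than in MICFs (2.04 to 2.55), a difference of -1.497, and C1s1 was 6.13-fold lower (5.32 to 7.10), a difference of -2.81. Both differences were under -1 in all 9 scalings. In the library labelled GMTMM the differences from MICFs were 0.67 for C1ra and 0.43 for C1s1, short of 1, although C1ra passed 1 in 3 of 8 scalings. In deposited FPKM they were 2.18-fold (2.04 to 2.33) and 1.91-fold (1.80 to 2.02) higher there. The transduced libraries differed most, with C1s1 11.7-fold lower in GMTMS-iCMs (10.2 to 13.5) and C1ra 4.97-fold lower (4.47 to 5.53).

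The counts of both proteases carry limits of annotation. Of the 50-base words of the C1ra transcript 50.8% also occur in another gene, mostly its copy C1rb, and 24.3% of those of C1s1 occur in C1s2. The copies had few counts, 2, 0 and 1 for C1rb and 1, 0 and 9 for C1s2, so a read divided between copies could have gone uncounted. The antisense gene Gm16567 overlaps 18.4% of the C1s1 exon bases and had 0 counts, and the handling of strand is not given in the sources used here. The C1q chains and C3 share no such words with another gene.

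C1s1 kept its proportion to the summed fibroblast markers and C1ra did not. All 12 fibroblast markers, collagens, Dcn, Pdgfra and Tcf21 among them, fell short of their MICF level by over 1 in GMTMS-iCMs (median difference -2.84), and 6 of them lay below and 6 above C1s1. C1ra was above all 12 of them, just over the nearest, Ddr2 (-1.51). For 1000 fibroblast marker counts there were 11.0 C1s1 counts in MICFs (10.5 to 11.5), 12.1 in GMTMS-iCMs (10.5 to 13.9) and 11.2 in the library labelled GMTMM (10.8 to 11.6). The ratio of ratios to MICFs was 1.10 (0.954 to 1.27) and 1.02 (0.967 to 1.08), and both intervals include 1. C1ra gave 7.75, 23.0 and 9.07 counts for 1000 marker counts, 2.97 times as many in GMTMS-iCMs as in MICFs (2.65 to 3.33) and 1.17 times in the library labelled GMTMM (1.10 to 1.25). As a result the ratio of C1s1 to C1ra went from 1.42 in MICFs (1.32 to 1.52) to 0.526 in GMTMS-iCMs (0.443 to 0.622) and 1.24 in the library labelled GMTMM (1.17 to 1.30). Col3a1 alone gave 91516 of the 184414 marker counts in MICFs, and it was the most reduced of the 12 in GMTMS-iCMs (difference -3.82). The level proportion did not hold for Col1a1 by itself. Col1a1 was 5.10-fold lower in GMTMS-iCMs (4.92 to 5.29), against 6.13-fold (5.32 to 7.10) for C1s1. In the library labelled GMTMM, Col1a1 was 2.40-fold higher (2.37 to 2.44), against 1.91-fold (1.80 to 2.02) for C1s1. Endothelial markers were lower in GMTMS-iCMs too, by a median of 4.78 on the log2 scale. The part of fibroblasts or other cells in the protease counts was not tested.

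C1q was also set against C1r and C1s, first by counts of the same library, which need no scaling. MICFs had 14.3 C1q counts for each C1ra or C1s1 count (13.8 to 14.8), GMTMS-iCMs had 102 (94.7 to 111) and the library labelled GMTMM had 7.04 (6.85 to 7.24). GMTMS-iCMs thus had 7.15 times the ratio of MICFs (6.56 to 7.81), and the library labelled GMTMM 0.491 times (0.470 to 0.513). On the main scale the same contrast, the mean difference of the 3 chains less that of both proteases, was 2.36 in GMTMS-iCMs (2.35 to 2.88 over 10 settings) and -0.98 in the library labelled GMTMM (-1.04 to -0.97 over 9 settings). C1q was thus raised over its proteases in one transduced library and reduced in the other. Against all 6 other genes together the ratio was 3.80, 5.81 and 1.63 C1q counts per count.

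C4b (ENSMUSG00000073418), which encodes the C4 cut by C1s, hardly changed on the main scale. It had 49.4, 71.2 and 65.5 FPKM, from 4049, 3764 and 4358 counts, and its ranks by FPKM were 736th, 750th and 793rd. The differences from MICFs were -0.02 and -0.09, and both signs turned in 3 settings, to at most 0.53 and 0.41. In deposited FPKM, C4b was 1.44-fold (1.38 to 1.51) and 1.33-fold (1.27 to 1.38) higher than in MICFs. Its copy C4a, the sex-limited protein gene, had 9, 23 and 33 counts, and 35.2% of the C4b words occur there.

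C2 (ENSMUSG00000024371), whose protein pairs with C4 in the convertase, was a rare transcript and was lowest in GMTMS-iCMs. It had 67, 15 and 153 counts, or 1.20 FPKM in MICFs (0.932 to 1.53), 0.417 in GMTMS-iCMs (0.233 to 0.688) and 3.38 in the library labelled GMTMM (2.87 to 3.96). The counting intervals of the 3 libraries did not overlap. C2 was 2.88-fold lower in GMTMS-iCMs than in MICFs (1.63 to 5.43), and 8.11-fold lower than in the library labelled GMTMM (4.77 to 14.8). With the pseudocount of 1, which holds back rare genes, the difference from MICFs was -0.55 for GMTMS-iCMs. It was 0.995 for the library labelled GMTMM, just short of 1, and the difference between the transduced libraries was -1.54. Both calls against MICFs depended on the setting, since C2 was lower by over 1 in GMTMS-iCMs in 3 of 9 settings (to -1.51) and higher by over 1 in the other transduced library in 4 of 8 (to 1.47). Another gene, Gm20547, has exons over 42.8% of the C2 exon bases on the same strand and 0 counts, so reads that fit both may have been left out and the C2 level is uncertain.

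Cfb (ENSMUSG00000090231), factor B of the alternative pathway, was near the limit of detection. It had 8, 5 and 15 counts, or 0.197 FPKM in MICFs (0.0850 to 0.388), 0.191 in GMTMS-iCMs (0.0619 to 0.445) and 0.455 in the library labelled GMTMM (0.254 to 0.750). All intervals overlapped, and the fold of the library labelled GMTMM over MICFs, 2.31, had an interval of 0.919 to 6.29, so no difference in Cfb was detectable at this depth. Gm20547 also covers 79.5% of the Cfb exon bases, and the Cfb count is uncertain for the same reason as that of C2.

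C3 (ENSMUSG00000024164), the central component, was the only one of the 9 that was higher by over 1 than in MICFs. It had 73.8 FPKM in MICFs (71.8 to 75.7), 136 in GMTMS-iCMs (133 to 139) and 238 in the library labelled GMTMM (234 to 242), from 5459, 6496 and 14293 counts. The levels thus went up in the order of the libraries given, with no overlap of these intervals, and C3 ranked 451st, 368th and 172nd by FPKM. The library labelled GMTMM was 3.23-fold over MICFs (3.13 to 3.33), a difference of 1.13 that stayed over 1 in all 8 scalings. GMTMS-iCMs were 1.84-fold over MICFs in FPKM (1.78 to 1.91), a difference of 0.25. C3 exceeded C4b by 1.35 counts to 1 in MICFs (1.29 to 1.40), 1.73 in GMTMS-iCMs (1.66 to 1.80) and 3.28 in the library labelled GMTMM (3.17 to 3.39).

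C3 and C4b followed neither marker list in both transduced libraries. For 1000 fibroblast marker counts, C3 gave 29.6, 370 and 51.2 counts. C4b gave 22.0, 214 and 15.6. Both were thus 12.5 times (12.0 to 13.0) and 9.76 times (9.31 to 10.2) more abundant against fibroblast markers in GMTMS-iCMs than in MICFs. Against 1000 macrophage marker counts C3 gave 23.7, 20.3 and 82.8 counts, which is 0.859 times the MICF share in GMTMS-iCMs (0.828 to 0.891) and 3.50 times in the library labelled GMTMM (3.39 to 3.62). C4b gave 17.5, 11.8 and 25.3 for 1000 macrophage marker counts, 0.671 times (0.642 to 0.702) and 1.44 times (1.38 to 1.50) the MICF share. In GMTMS-iCMs both genes therefore lay nearer to the macrophage than to the fibroblast markers, and C3 in the library labelled GMTMM exceeded both lists. Interferon response genes stood apart in the same libraries, with 11 of 12 higher by over 1 in GMTMS-iCMs (median 2.497) and 9 of 12 in the library labelled GMTMM (median 2.59). Cxcl10 had 44, 10253 and 6761 counts. Their part in the levels of C3, C4b, C2 and Cfb was not tested, nor was that of the lymphocyte transcripts of the library labelled GMTMM.

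**Figure D3:**
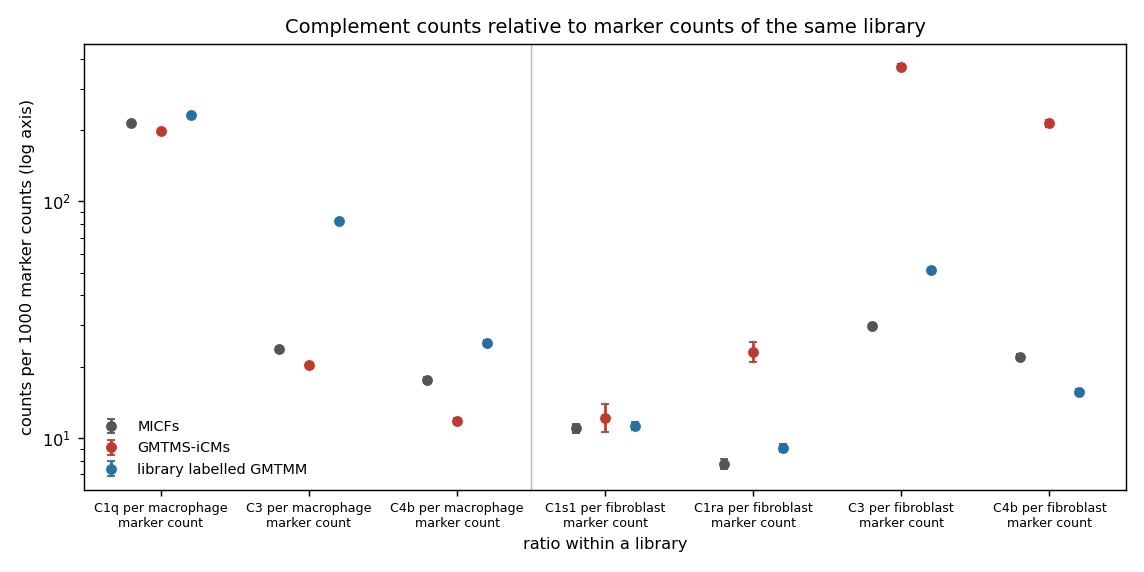
Counts of C1q, C3, C4b, C1s1 and C1ra for 1000 counts of the macrophage (left of the line) or fibroblast markers of the same library (log axis), with 95% counting intervals. C1q per macrophage marker (198 to 231) and C1s1 per fibroblast marker (11.0 to 12.1) are nearly level over the 3 libraries, while C3 and C4b per fibroblast marker are highest in GMTMS-iCMs (370 and 214).

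The other genes of the cascade were taken from a list of 50, of which 29 reached an FPKM of 1 and 7 had 0 counts in all libraries (Mbl1, Mbl2, Fcnb, Colec10, C8b, C4bp and Cpn2, several of them liver products). Between GMTMS-iCMs and MICFs 3 of the 50 were higher by over 1 and 7 lower, and between the library labelled GMTMM and MICFs 2 were higher and 1 lower. Among the 13919 genes with an FPKM of at least 1, the shares were 12.1% and 10.7% in the first comparison and 8.31% and 5.09% in the second, and over all genes 3.13% and 2.72%, and 2.12% and 1.30%. The 7 that were lower in GMTMS-iCMs were 6 secreted proteins and Colec12, a collectin of the cell surface. Serping1, the C1 inhibitor that shuts off C1r and C1s, had 376, 59.0 and 670 FPKM, with differences from MICFs of -3.29 and 0.32. It was 6.38-fold lower in GMTMS-iCMs (6.02 to 6.76), much like C1s1, and gave 68.3, 72.5 and 65.3 counts for 1000 fibroblast marker counts. Its ratio to C1ra and C1s1 together was 3.65 in MICFs (3.51 to 3.79), 2.06 in GMTMS-iCMs (1.87 to 2.27) and 3.22 in the library labelled GMTMM (3.12 to 3.31). Against MICFs the inhibitor was thus reduced more in GMTMS-iCMs than the summed counts of its targets. Taken singly, C1s1 was reduced about as much as Serping1 (6.13-fold, 5.32 to 7.10) and C1ra less (2.28-fold, 2.04 to 2.55).

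Factor I (Cfi), a protease that inactivates C3b, was lower by 1.41 on the log2 scale in GMTMS-iCMs, with 174, 27 and 224 counts. Of the lectin pathway, which starts from sugars and meets the classical pathway at C4, Colec11 had 1015, 44 and 1236 counts (difference -3.76 in GMTMS-iCMs) and Colec12 had 2026, 616 and 1938 (difference -1.47). Fcna, a ficolin made by macrophages, had 2428, 3754 and 2799 counts and differences of 0.55 and -0.11. In GMTMS-iCMs the collectins were thus on the side of the C1 proteases, and Fcna on that of C1q. C7, a part of the membrane attack complex, had 209, 23 and 300 counts (difference -1.68), and the protease factor D (Cfd) had 30, 1 and 10. Properdin (Cfp), a stabilizer of the alternative convertase that leukocytes make, had 3319, 4326 and 2981 counts and differences of 0.26 and -0.52, close to those of C1qa and C1qb.

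The receptors and binding proteins for complement products lay higher in GMTMS-iCMs than in the library labelled GMTMM in 9 of 12 genes. Their median difference was 0.84, against 0.10 for the 13919 genes. By over 1, 5 of the 12 were higher and 0 lower, and of the 16 regulators 0 were higher and 4 lower. Among the 13919 genes the shares higher and lower were 9.01% and 11.1%, and among all genes 2.33% and 2.84%. C3ar1, the receptor for C3a, had 5528, 9168 and 3973 counts and differences from MICFs of 0.70 and -0.73. C5ar1, the receptor for C5a, had 3271, 5181 and 2634 counts and differences of 0.65 and -0.57. Both were present at 79.0 FPKM or more in every library, while their source genes differed, since C3 was abundant and Hc, which encodes C5, had 1, 3 and 8 counts. Itgam and Itgax, the alpha chains of complement receptors of leukocytes, and Vsig4, a C3b receptor of macrophages, were higher by over 1 in GMTMS-iCMs (1.07, 1.74 and 1.03). Vsig4 was rare, with 19, 35 and 23 counts, and its fold of 2.85 had a wide interval (1.59 to 5.28). C5ar2 was lower by 1.35 on the log2 scale in the library labelled GMTMM, with 168, 72 and 27 counts. The genes higher in that library were Clu, or clusterin, with 334, 404 and 2110 counts (difference 2.65) and Vtn, or vitronectin, with 15, 3 and 81 (difference 1.52), both known to hold back the membrane attack complex. The counts of list members higher depended on the scale, with 3 to 13 of 50 higher in GMTMS-iCMs and 2 to 7 in the library labelled GMTMM over the scalings.

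**Figure D4:**
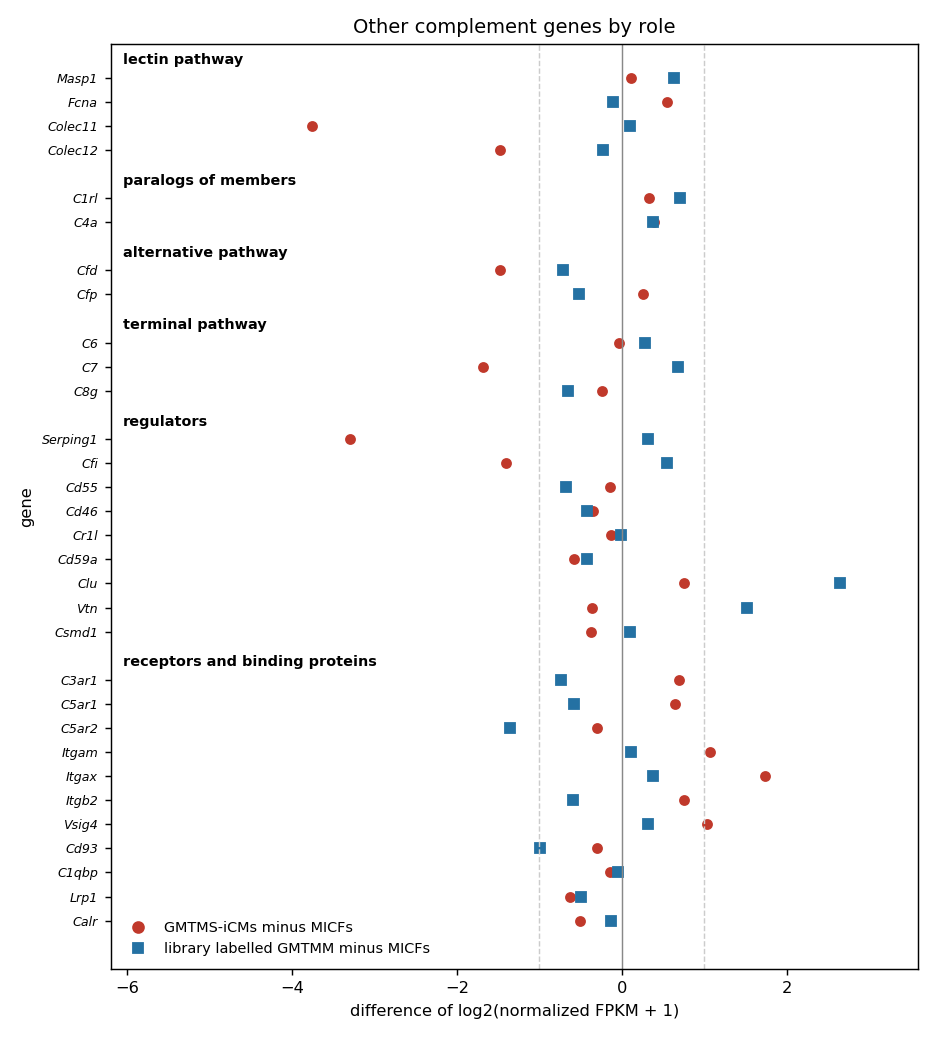
Difference from MICFs of log2(normalized FPKM + 1) for other complement genes with at least 10 counts in a library, by role, with circles for GMTMS-iCMs and squares for the library labelled GMTMM; dashed lines mark a difference of 1. Colec11 and Serping1 lie farthest to the left in GMTMS-iCMs (-3.76 and -3.29), and Clu lies farthest to the right in the library labelled GMTMM (2.65).

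Likeness to other genes was measured as the Euclidean distance between the pair of differences from MICFs, over 12116 genes with at least 100 counts in all. It rests on 3 libraries, so only a pair of values is matched. Nearest to the mean of the C1q chains (0.21 and -0.43) were Pias1, Ube4a, Rab19, Herc4 and Ncoa1. This match was made on the main scale only, where quantile normalization sets the values of abundant genes such as C1q. In counts, all of these genes were lower in GMTMS-iCMs than in MICFs, such as Pias1 with 885, 713 and 554. The C1q chains together had 49511, 63334 and 39853 counts. C1ra and C1s1 (mean -2.15 and 0.55) had Mmp23, Medag, Rcn3, F2rl1 and Entpd2 nearest, and C3 (0.25 and 1.13) had AI506816, Ngfr, Abhd2, Pim3 and Gcnt4. The distances were 0.0017 to 0.0093 for C1q, 0.040 to 0.12 for the proteases and 0.049 to 0.084 for C3, so genes lay most densely around the pattern of C1q.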

How the data were processed

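RNA of 3 libraries was sequenced by the authors as paired reads of 150 bases. The submitters' processing notes name HISAT2 2.0.5 and mm9, but the gene coordinates and lengths in the files equal those of GENCODE M21 on GRCm38. How reads were counted, and how strand and shared reads were treated, is not given in the sources used here. The authors deposited raw counts per gene and FPKM per gene. The deposited FPKM equalled counts divided by gene length and by library sizes of 14389264, 9287868 and 11680913, each of which is the geometric mean of the totals multiplied by that library's DESeq2 size factor. The MICF column carries an abbreviation and was matched because the other columns name the cocktails.

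FPKM were quantile-normalized over the 3 libraries with ties at their mean rank, then log2 transformed with a pseudocount of 1. A difference over 1 was called. Each condition has 1 library, so no test was run. Shares and folds have 95% Clopper-Pearson intervals, and ratios of ratios have conditional exact intervals of R. Steps were tested on simulated data. Complement genes and gene lists were chosen with earlier results of these data known. Genes named are the 9 complement genes, other complement genes with at least 10 counts in a library, those at 0 in all libraries, Hc, copies and overlapping genes, marker genes, delivered factors, and the 5 genes nearest in pattern. Those at 0 in all libraries and Hc, with under 10 counts, were named after their values were seen. The values of 1 gene of the list of other complement genes are not reported here, although it is part of the list's counts. Sequence shared with other genes was measured by overlapping exon bases and by words of 50 bases. Upstream sequence is from RefSeq (GRCm38.p6), where 5 of 9 genes had a window.

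Other settings tried were quantile normalization after the log2 step, none at all, or over protein-coding genes or genes with FPKM of at least 1, edgeR's TMM log2 CPM (prior count 2), DESeq2 size factors, a pseudocount of 0.1, a difference over 2, and ratios of summed counts. The setting without quantile normalization and that with DESeq2 size factors use the same library scaling, so they are not independent. Scaling to total counts was not among the settings. Normalization over MICFs and GMTMS-iCMs alone, and the median of the 100 genes with the highest mean FPKM, were added after seeing the data. Software comprised R 4.3.3 with DESeq2 1.42.0 and edgeR 4.0.16, and Python 3.11.15 with SciPy 1.17.1, pandas 2.3.3, numpy 2.4.6 and matplotlib 3.10.9.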

Additional observations from a re-analysis of the deposited data

Results flagged for a closer look

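C1ra, C1s1 and C2 were on opposite sides of MICFs in the transduced libraries, and this difference was not tested because each condition has 1 library. C1ra differed from MICFs by -1.497 on the log2 scale in GMTMS-iCMs and by 0.67 in the library labelled GMTMM, a difference between the transduced libraries of -2.17. For C1s1 the differences from MICFs were -2.81 and 0.43, and between the transduced libraries -3.24. C2 lay at -0.55 and 0.995 from MICFs and -1.54 between the transduced libraries, from 15 and 153 counts.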

How the results depend on the processing

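No paired analysis was possible because every group is a single library, and for the same reason no library could be left out. Over the alternatives, 57 of 84 counts of genes stayed within 1.5 times their main value, 23 of 47 contrasts and 132 of 195 single-gene differences stayed within their counting interval. No difference over 1 changed its sign, but smaller ones did, C1qa in the library labelled GMTMM (to 0.05) and C4b in both comparisons with MICFs (to 0.53 and 0.41), and Cfb in GMTMS-iCMs (to -0.10). The order of C1q against C1r and C1s kept its sign in every setting run. Without quantile normalization the median difference of all 13919 genes between the library labelled GMTMM and MICFs went from -0.08 to 0.02.

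Among the 9 genes, 2 (C1qa and C1qb) were higher in GMTMS-iCMs than in MICFs without quantile normalization and 2 with DESeq2 size factors, against 0 on the main scale, and by over 2 only 1 (C1s1) was lower, against 2. In the library labelled GMTMM, 2 were higher without quantile normalization, 3 with TMM, 4 with DESeq2 size factors, 2 with a pseudocount of 0.1, 2 over protein-coding genes and 0 by over 2, against 1. GMTMS-iCMs exceeded the library labelled GMTMM in 1 gene without quantile normalization and in 1 with DESeq2 size factors, against 0.

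Of the 50 other complement genes, those higher in GMTMS-iCMs numbered 7 without quantile normalization, 10 with TMM, 13 with DESeq2 size factors, 5 with a pseudocount of 0.1 and 0 by over 2, against 3, and those lower 11 with DESeq2 size factors and 2 by over 2, against 7. In the library labelled GMTMM those higher numbered 7 with TMM, 7 with DESeq2 size factors, 5 with a pseudocount of 0.1 and 1 by over 2, against 2, and those lower numbered 4, 5, 3 and 0 in the same settings and 2 over protein-coding genes, against 1.

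The contrast of C1q with C1r and C1s was 2.78 without quantile normalization, 2.88 with TMM, 2.88 with DESeq2 size factors and 2.84 from summed counts in GMTMS-iCMs against MICFs (main 2.36), and 3.80, 3.92, 3.92 and 3.86 between the transduced libraries (main 3.34). Against the other 6 genes it was 1.46, 1.62, 1.63 and 0.61 in the same settings and 1.11 with a pseudocount of 0.1 (main 0.98). In the library labelled GMTMM it was -0.91, -1.12, -1.13, -1.22 and -1.17 (main -0.99). Between the transduced libraries it was 2.37, 2.74, 2.77, 1.84 and 2.28, and 1.93 over protein-coding genes (main 1.97). The cause of these shifts was not tested. Cfb is left out at an FPKM of at least 1, so this contrast has no value there. Counting error limits Cfb and C2.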
